A study of Mus musculus with 10 samples.

Results

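The genes of disease-associated microglia and lipid-laden phagocytes were followed across the RPE libraries: Trem2, Tyrobp, Cst7, Itgax, Clec7a, Cd68, Apoe, Gpnmb, Lpl and Spp1. These 10 genes, taken by name from a total of 47729 in the count table, all had enough counts to be tested. They were split by where the genes are known to be used. Trem2, Tyrobp, Cst7, Itgax, Clec7a and Cd68, the 6 immune members, are used mainly by macrophages and microglia. Apoe, Gpnmb, Lpl and Spp1, the 4 wider members, are also made by the RPE, by pigment cells or by other non-immune cells.

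RNA came from 5 wild-type CD1 mice at postnatal day 40, with 2 libraries per mouse. One eye, the GFP control, had been injected with AAV-Best1-GFP only. The fellow eye, the Nrf2 eye, had been injected with AAV-Best1-GFP together with AAV-Best1-hNrf2, which carries the human NRF2 coding sequence. AAV is an adeno-associated virus that delivers a gene to cells, and the human Best1 promoter drives expression in RPE cells, so both groups carried a GFP vector and the Nrf2 eyes carried an additional one whose dose had no counterpart in the control eyes. RNA was recovered from the preserving fluid around retina-free eyecups. No sorting of cells is described, so beside RPE RNA a library could still hold RNA of other cells of the eyecup.

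Microglia and macrophages sense lipids and dying cells with TREM2, a surface receptor that signals through the adaptor TYROBP (DAP12). In injured or degenerating nervous tissue such cells are known to take on a state in which Trem2, Tyrobp, Apoe, Lpl, Cst7, Itgax, Clec7a and Spp1 are high while homeostatic genes such as P2ry12 and Tmem119 are low. The RPE is itself a phagocyte that clears outer segment tips and exports lipid, and it is known to make much Apoe and Gpnmb.

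Library totals ran from 12298404 to 27310638 counts, so that the 3 counts a zero allows corresponded to 0.110 to 0.244 CPM (counts scaled to the library total), counting error only. The delivered factor was read first. Nfe2l2, the mouse gene, which can also collect reads of the human vector, was at 79.3 to 110 CPM in control eyes and 267 to 414 CPM in Nrf2 eyes. Hmox1, the heme oxygenase gene that NRF2 switches on, rose from 10 ± 2.95 to 693 ± 123 CPM (SD, n = 5 eyes each). All 8 genes tested of NRF2 itself and its direct targets rose, among them the antioxidant genes Srxn1, Gclc and Txnrd1 by 4.96, 4.46 and 4.10 on the log2 scale. Of the 10 RPE markers, 7 fell and 0 rose, led by Rpe65 from 3492 ± 779 to 547 ± 334 CPM, and Best1 itself was at 0.119 to 1.5 CPM in every library. Rod photoreceptor RNA stood apart in mouse 2, where the rod markers summed to 16775 CPM in the control eye and 6374 CPM in the Nrf2 eye, against 31.1 to 2452 CPM in the other libraries. Without mouse 2, the same 6 member genes passed the threshold.

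The promoters of 8 members, 12 sequences in all, were found in RefSeq (GRCm38.p6), each from 250 bases before to 50 bases after a transcript start. Of these, 4 are shown because they match the same loose short pattern while the RNA of their genes behaved differently. Trem2 (plus strand, chr17:48346151-48346450), Cst7 (plus strand, chr2:150570165-150570464) and Itgax (plus strand, chr7:128129300-128129599) are immune members, and Gpnmb (plus strand, chr6:49036268-49036567) is a wider member. Capitals mark matches to TGANTCA, a loose form of the AP-1 site TGA(G/C)TCA that allows any middle base. In Itgax only, they also mark TGACNNNGC, the core of the antioxidant response element to which NRF2 binds. The middle base is A in Trem2 and T in Cst7, so neither match is an AP-1 site in the strict sense. Both motifs were searched on both strands, and their letters can overlap.
Trem2: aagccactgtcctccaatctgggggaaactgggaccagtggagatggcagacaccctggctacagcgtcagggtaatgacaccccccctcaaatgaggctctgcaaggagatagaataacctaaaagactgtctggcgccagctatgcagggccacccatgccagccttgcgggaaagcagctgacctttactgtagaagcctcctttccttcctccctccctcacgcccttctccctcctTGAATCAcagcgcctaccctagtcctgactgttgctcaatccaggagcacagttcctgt
Cst7: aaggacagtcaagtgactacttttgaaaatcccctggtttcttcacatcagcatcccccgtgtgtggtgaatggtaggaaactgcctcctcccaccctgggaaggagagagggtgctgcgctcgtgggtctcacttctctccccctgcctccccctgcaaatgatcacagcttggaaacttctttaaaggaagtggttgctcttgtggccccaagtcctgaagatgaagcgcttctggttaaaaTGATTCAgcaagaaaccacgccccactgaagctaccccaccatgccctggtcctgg
Itgax: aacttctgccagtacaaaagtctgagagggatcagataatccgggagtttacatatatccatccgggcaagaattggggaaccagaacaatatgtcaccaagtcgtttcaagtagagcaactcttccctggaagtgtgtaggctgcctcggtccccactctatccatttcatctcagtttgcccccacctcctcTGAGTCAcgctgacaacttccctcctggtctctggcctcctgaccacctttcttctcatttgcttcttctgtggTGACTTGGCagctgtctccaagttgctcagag
Gpnmb: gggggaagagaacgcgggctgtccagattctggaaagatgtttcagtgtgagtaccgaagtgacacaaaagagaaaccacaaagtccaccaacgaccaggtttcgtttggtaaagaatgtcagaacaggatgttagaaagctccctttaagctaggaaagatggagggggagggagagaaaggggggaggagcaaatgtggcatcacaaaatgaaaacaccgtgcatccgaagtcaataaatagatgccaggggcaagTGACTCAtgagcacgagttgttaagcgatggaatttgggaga

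The loose letters TGANTCA were found in the promoters of Trem2, Cst7, Itgax, Cd68 and Gpnmb, and in 7.81% of all 32851 mouse promoters of this length. Only in Itgax, Cd68 and Gpnmb was the middle base the G or C of the AP-1 site. The share of all promoters with that strict site was not counted. The antioxidant core was found only in the Itgax promoter among these 8 genes, 18 bases after the start, and in 12.39% of all promoters. The PU.1 core GAGGAAGT was found in the first Spp1 promoter and in 3.2% of all promoters. The pigment cell M-box core CATGTG (14.15% of all promoters) and the CACGTG E-box bound by lysosomal regulators (7.15%) were found in 0 of the 12 sequences. Neither Clec7a nor Apoe matched any of the 5 motifs in this window. Tyrobp and Lpl were not in the promoter table. A match describes the letters only.

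To ask how these genes differed between the eyes, the Nrf2 eye was compared with the GFP control eye of the same mouse. Of the 10 members, 6 rose, 0 fell and 4 did not pass the threshold (edgeR quasi-likelihood test with the mouse as a block, Benjamini-Hochberg adjusted p under 0.05 over all 16362 genes tested). Among all tested genes 6.33% passed, 3.6% as higher and 2.73% as lower. The 6 were Trem2, Tyrobp, Cst7, Cd68, Lpl and Spp1. Among the immune members 4 of 6 rose and among the wider members 2 of 4. The median log2 fold change was 3.18 over all members, 4.09 over the immune members and 1.22 over the wider members, against -0.01 over all tested genes. The CPM of the Nrf2 eyes lay wholly above that of the control eyes for 7 members, which held for 3.87% of tested genes. For 8 members the Nrf2 eye was the higher eye in 5 of 5 mice, which held for 9.23% of tested genes. In bulk tissue, more cells of a type and more RNA per cell cannot be told apart.

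**Figure D1:**
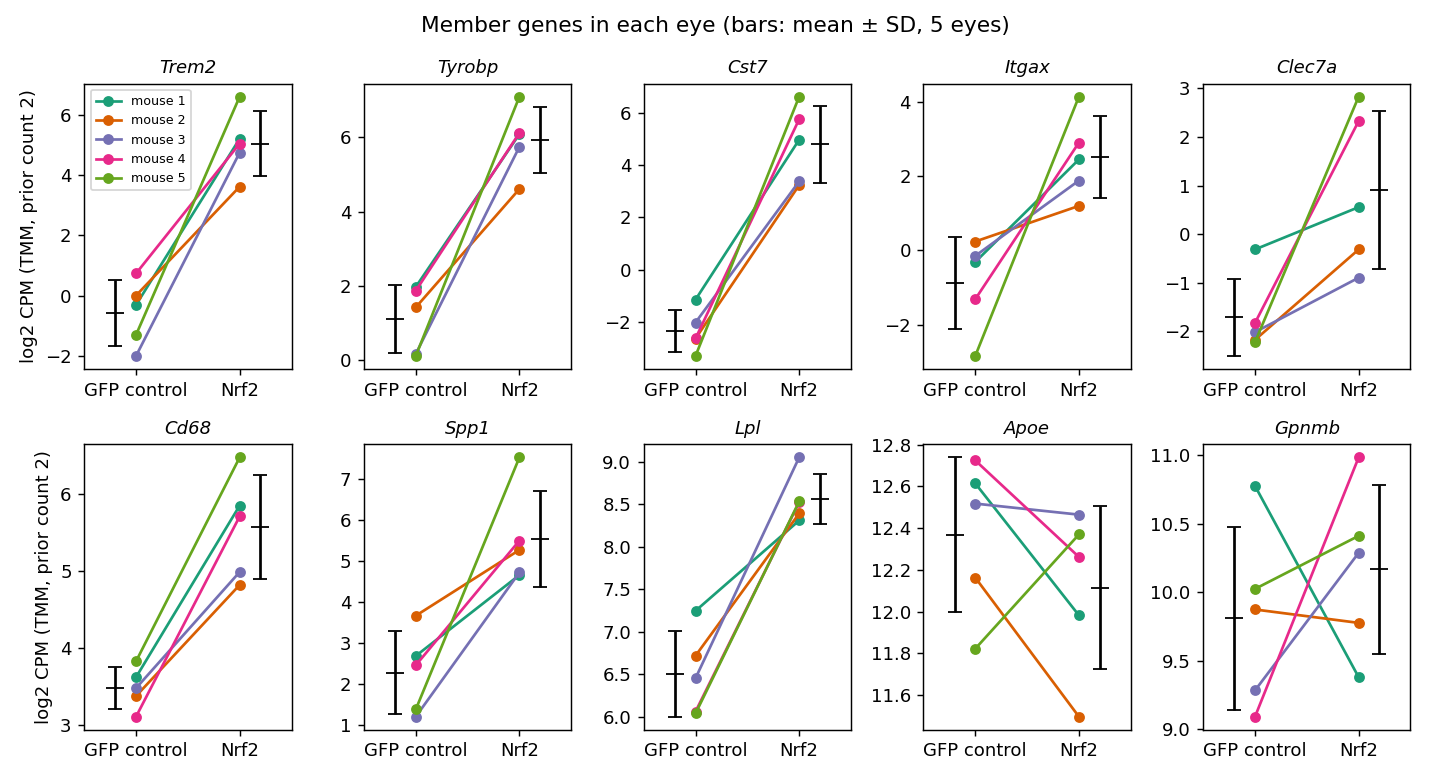
Log2 CPM (TMM-scaled, prior count 2) of each member in the GFP control and Nrf2 eye of the 5 mice, with a line joining the eyes of 1 mouse and bars giving the mean ± SD of 5 eyes; each panel has its own vertical axis. All lines rise for 8 members, whereas Apoe falls in 4 of 5 mice and Gpnmb rises in 3 and falls in 2.

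Trem2 and Tyrobp encode the receptor and its adaptor. Trem2 (ENSMUSG00000023992, chromosome 17, 48346401 to 48354147, plus strand, mm10) was at 0.714, 0.924, 0.140, 1.55 and 0.293 CPM in the control eyes of mice 1 to 5, and at 36.0, 12.8, 25.7, 34.7 and 103 CPM in their Nrf2 eyes. The lowest Nrf2 eye, that of mouse 2, was above the highest control eye, that of mouse 4. Mean levels went from 0.725 ± 0.560 to 42.3 ± 34.9 CPM (SD over 5 eyes), by 5.69 in log2 units (SE 0.79, adjusted p = 0.00377), and by 5.05 without mouse 5. The 5 control libraries together held 65 counts of Trem2, so its control level is known less well than its Nrf2 level, for which there were 3903 counts.

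Tyrobp (ENSMUSG00000030579, chromosome 7, 30413760 to 30417585, plus strand) was at 3.88, 2.65, 0.978, 3.52 and 0.952 CPM in control eyes and at 65.5, 25.3, 50.8, 72.3 and 142 CPM in Nrf2 eyes. The groups did not overlap, and mouse 5 was lowest of the control eyes and highest of the Nrf2 eyes. Tyrobp rose from 2.40 ± 1.38 to 71.2 ± 43.5 CPM, by 4.80 in log2 units (SE 0.66, adjusted p = 0.00361).

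Of the 13 tested partners of TREM2 and TYROBP signalling, 4 rose, 0 fell and 9 did not pass the threshold, with a median log2 fold change of 0.68. Fcer1g, an adaptor of the same kind as TYROBP that serves Fc receptors, rose from 1.67 ± 0.941 to 28.9 ± 17.3 CPM (log2 fold change 4.03, SE 0.67, adjusted p = 0.00821). Vav1, a guanine nucleotide exchange factor of blood cells, rose by 3.46 (SE 0.20), and the membrane adaptor Lat2 rose by 2.31 (SE 0.38). The kinase Lyn rose by 0.84 (SE 0.21, adjusted p = 0.0350) from a higher control level of 23.9 ± 4.19 CPM. The calls of Lyn and Lat2 were lost with rod RNA as a covariate in the fit (the rod covariate) and without mouse 4, that of Lyn also without mouse 1, 2 or 5 and that of Lat2 also without mouse 3. The 3 most abundant of the list, which all cells use, did not pass: the sheddases Adam10 (log2 fold change 0.15) and Adam17 (0.02), which can cut TREM2 from the surface, and the adaptor Grb2 (0.16). The kinase Syk, which TYROBP recruits, was chosen here after its values were seen. It had 11.7 ± 7.19 and 14.4 ± 3.79 CPM (log2 fold change 0.42, adjusted p = 0.460). The other genes of the Trem family, none of which had enough counts to pass the edgeR filter, summed to 0.0597 to 0.663 CPM in control eyes and 0.752 to 1.5 CPM in Nrf2 eyes. Treml4 and Treml2 were the most abundant among them, at 0.541 ± 0.124 and 0.376 ± 0.183 CPM in Nrf2 eyes, followed by Trem1 at 0.131 ± 0.180 CPM. DESeq2 called 1 of 5 of them, Treml4, higher (adjusted p = 0.0323), and edgeR without the filter called 0 of 5 (0.0678 for Treml4).

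Cst7 encodes cystatin F, an inhibitor of cysteine proteases that acts in the lysosomes of immune cells. Cst7 (ENSMUSG00000068129, chromosome 2, 150570415 to 150578944, plus strand) was at 0.357, 0.0616, 0.140, 0.0597 and 0 CPM in control eyes, which together held 11 counts. In Nrf2 eyes it was at 30.0, 9.68, 9.74, 55.8 and 101 CPM. It was at or under 7 counts in every control eye and at or above 238 counts in every Nrf2 eye. Its log2 fold change of 8.26 (SE 0.86, adjusted p = 0.00119) was the largest of the members, and with control counts this low the value depends on the prior count of the fit. It was 7.07 at a prior count of 2, the scale from which the SE was taken, 9.54 without mouse 1 and 7.22 without mouse 5.

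Of the proteases and cystatins on which Cst7 bears, 3 of 7 rose. Ctss, the cathepsin S of antigen-presenting cells, rose from 12.9 ± 2.98 to 231 ± 132 CPM (log2 fold change 3.98, SE 0.37). Lgmn (legumain) and Ctsh (cathepsin H) rose by 0.59 (SE 0.11) and 0.57 (SE 0.12). Both of these calls were lost with the rod covariate and without mouse 1, 4 or 5, that of Lgmn also without mouse 3 and that of Ctsh also without mouse 2. Ctsc and Ctsl, the genes of cathepsins C and L, gave 0.17 and 0.16 and did not pass the threshold. Neither did the abundant inhibitor Cst3, at 8905 ± 2420 and 7540 ± 2254 CPM.

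Itgax encodes the integrin chain CD11c and Clec7a the fungal sugar receptor dectin-1, and both were scarce. Itgax (ENSMUSG00000030789, chromosome 7, 128129547 to 128150657, plus strand) was at 0.714, 1.11, 0.768, 0.299 and 0.0366 CPM in control eyes and at 5.15, 2.28, 3.38, 7.64 and 18.1 CPM in Nrf2 eyes. The groups did not overlap, but the within-mouse difference ran from 0.96 in mouse 2 to 6.97 in mouse 5 on the log2 scale, and the log2 fold change of 3.38 (SE 1.04, adjusted p = 0.0938) missed the threshold. Without the pairing by mouse it passed, with a value of 3.63 and an adjusted p of 0.0230 in the edgeR fit. DESeq2 with the mouse in the model also called it (3.45, adjusted p = 0.000108). Its log2 fold change was 2.58 without mouse 5 and 4.12 without mouse 2.

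Clec7a (ENSMUSG00000079293, chromosome 6, 129461591 to 129472779, minus strand) was at 0.714, 0.123, 0.140, 0.179 and 0.110 CPM in control eyes and at 1.32, 0.732, 0.414, 5.12 and 7.28 CPM in Nrf2 eyes. The control eye of mouse 1, with 14 counts, lay above the Nrf2 eye of mouse 3, with 11 counts, so the groups overlapped, although the Nrf2 eye was the higher in 5 of 5 mice. The log2 fold change was 3.19 (SE 0.84, adjusted p = 0.0766 in edgeR), 2.61 at a prior count of 2, and 2.39 without mouse 5. DESeq2 gave 3.17 with an adjusted p of 0.00119. In edgeR with no filter on low counts both scarce genes also passed (adjusted p = 0.0334 for Itgax and 0.0353 for Clec7a), so their calls depended on the settings.

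Itgb2, the chain that pairs with CD11c, was the 1 of 3 tested beta-2 integrin genes that rose, from 1.54 ± 0.962 to 20.1 ± 12.9 CPM (log2 fold change 3.62, SE 0.79, adjusted p = 0.0202), a call that was lost with rod RNA as a covariate and without mouse 3 or 4. Without mouse 5 its log2 fold change was 2.99. Itgam, the CD11b chain, was at 36.5 to 148 CPM in control eyes and 54.1 to 173 CPM in Nrf2 eyes (log2 fold change 0.34, SE 0.36, adjusted p = 0.618), and Itgal gave 0.44. Among genes around dectin-1, Bcl10 and Malt1 had enough counts to be tested and both gave 0.15. By edgeR 0 of these 2 passed, as did 0 at an unadjusted p under 0.05 and 0 by DESeq2. Card9, which was not tested, was at 0.457 ± 0.315 and 0.495 ± 0.396 CPM.

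Cd68 encodes a heavily glycosylated lysosomal membrane protein used as a macrophage marker. Cd68 (ENSMUSG00000018774, chromosome 11, 69664213 to 69666153, minus strand) was at 12.4, 10.6, 10.6, 8.48 and 13.7 CPM in control eyes and at 55.3, 29.2, 29.9, 54.2 and 91.8 CPM in Nrf2 eyes. The control mean was 11.2 ± 2.00 CPM, and the groups did not overlap. The log2 fold change was 2.10 (SE 0.26, adjusted p = 0.00253). Of its relatives, Lamp2 rose by 0.60 (SE 0.10, adjusted p = 0.0276) and Lamp1 gave 0.46 (SE 0.07, adjusted p = 0.0532). The call of Lamp2 was lost with the rod covariate and without mouse 2, 3, 4 or 5. Lamp5, not tested, was at 2.48 ± 5.23 and 4.42 ± 9.53 CPM.

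**Figure D2:**
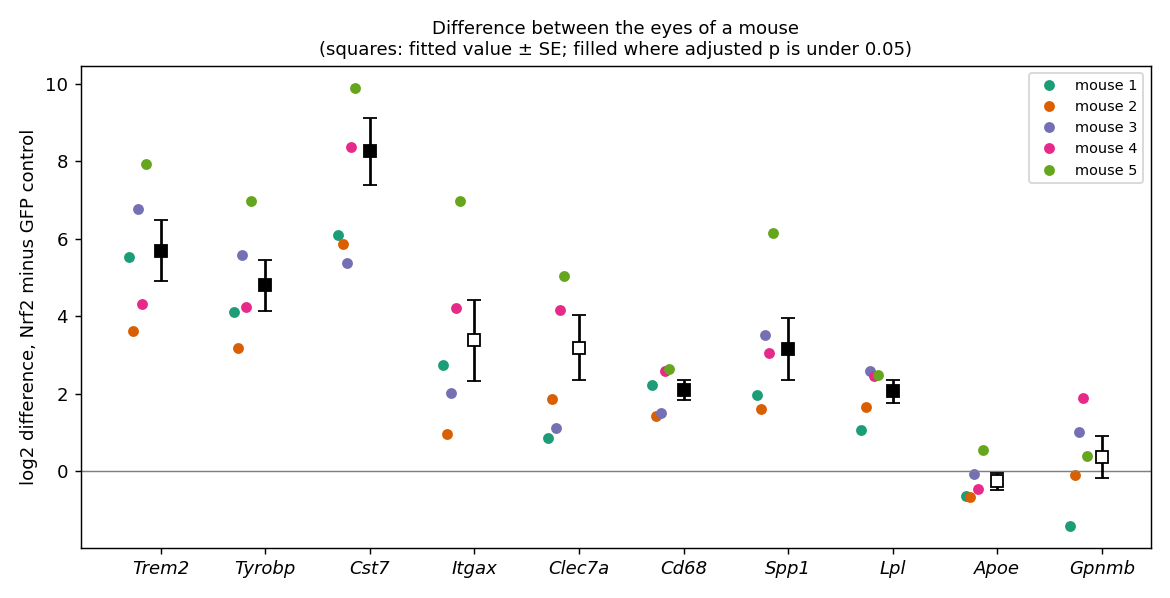
Log2 difference of the Nrf2 eye from the GFP control eye for each member, with 1 point per mouse (TMM-scaled, prior count 2) and squares giving the fitted log2 fold change ± SE, filled where the adjusted p is under 0.05. The 6 filled squares lie between 2.06 for Lpl and 8.26 for Cst7, and the mice of Apoe and Gpnmb lie on both sides of 0.

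Of the wider members, Apoe, Gpnmb and Lpl were abundant already in control eyes, and Spp1 was not. Apoe encodes the lipid carrier apolipoprotein E. Apoe (ENSMUSG00000002985, chromosome 7, 19696109 to 19699188, minus strand) was at 6370, 4724, 5633, 6730 and 3529 CPM in control eyes and at 3898, 3008, 5364, 5109 and 5492 CPM in Nrf2 eyes. It was lower in the Nrf2 eye of 4 mice and higher in that of mouse 5, and the groups overlapped. The log2 fold change of -0.26 (SE 0.23, adjusted p = 0.636), from 5397 ± 1296 to 4574 ± 1080 CPM, did not pass the threshold. In the same eyes Tyrobp rose in 5 of 5 mice.

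Of 16 tested neighbours, receptors and lipid exporters around Apoe, 3 fell, 0 rose and 13 did not pass, with a median of -0.14. Pltp, the phospholipid transfer protein, fell from 1207 ± 299 to 412 ± 168 CPM (log2 fold change -1.61, SE 0.17, adjusted p = 0.00222). The apolipoprotein E receptor gene Lrp8 fell by 0.81 (SE 0.16) and the HDL receptor gene Scarb1 fell by 0.65 (SE 0.12) on the log2 scale. Both calls were lost with the rod covariate and without mouse 1, 2 or 3, that of Scarb1 also without mouse 4 and that of Lrp8 also without the pairing by mouse. Of the abundant receptors, Sorl1 gave -0.41 and Lrp1 -0.40, neither past the threshold. Abca1, the lipid exporter that loads apolipoprotein E, was looked at after the values were seen and gave -0.20 (adjusted p = 0.461).

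Gpnmb encodes a glycoprotein of melanosomes and of lipid-laden phagocytes. Gpnmb (ENSMUSG00000029816, chromosome 6, 49036546 to 49070929, plus strand) was at 1782, 966, 598, 541 and 1014 CPM in control eyes and at 641, 912, 1186, 2110 and 1414 CPM in Nrf2 eyes. The highest control eye was that of mouse 1 and the highest Nrf2 eye that of mouse 4, and the groups overlapped over most of their range. Mice 1 and 2 had less Gpnmb in the Nrf2 eye and mice 3, 4 and 5 had more. Its log2 fold change of 0.37 (SE 0.55, adjusted p = 0.757) did not pass the threshold and was -0.14 with rod RNA as a covariate, 0.83 without mouse 1 and 0.02 without mouse 4.

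The mouse-to-mouse order of Gpnmb was set beside that of pigment genes. Its log2 differences in mice 1 to 5 were -1.40, -0.10, 1.01, 1.90 and 0.39. Those of Tyrp1, a melanin synthesis enzyme, were -1.33, -0.07, 0.79, 1.38 and 0.34. Of the 11 tested MITF family and pigment genes, 2 (Tyrp1 and Dct) had the sign of Gpnmb in 5 of 5 mice, against 5.02% of all other tested genes. Pmel, the melanosome fibril protein, Tyr, the tyrosinase, and Tfec, Tfeb and Mcoln1 had it in 4 mice. Mitf, the pigment cell transcription factor, Tfe3 and Oca2 had it in 3 and Slc45a2 in 2. Of the melanocyte genes, Mlana had it in 5 mice and Sox10 in 2. This is a description of 5 mice with no test, and these genes share the libraries. Of the 11 MITF family and pigment genes tested with edgeR, 0 passed, 1 had an unadjusted p under 0.05 and 1 passed by DESeq2. Dct, Tyrp1 and Pmel, the most abundant, had log2 fold changes of -0.03, 0.24 and 0.17.

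**Figure D3:**
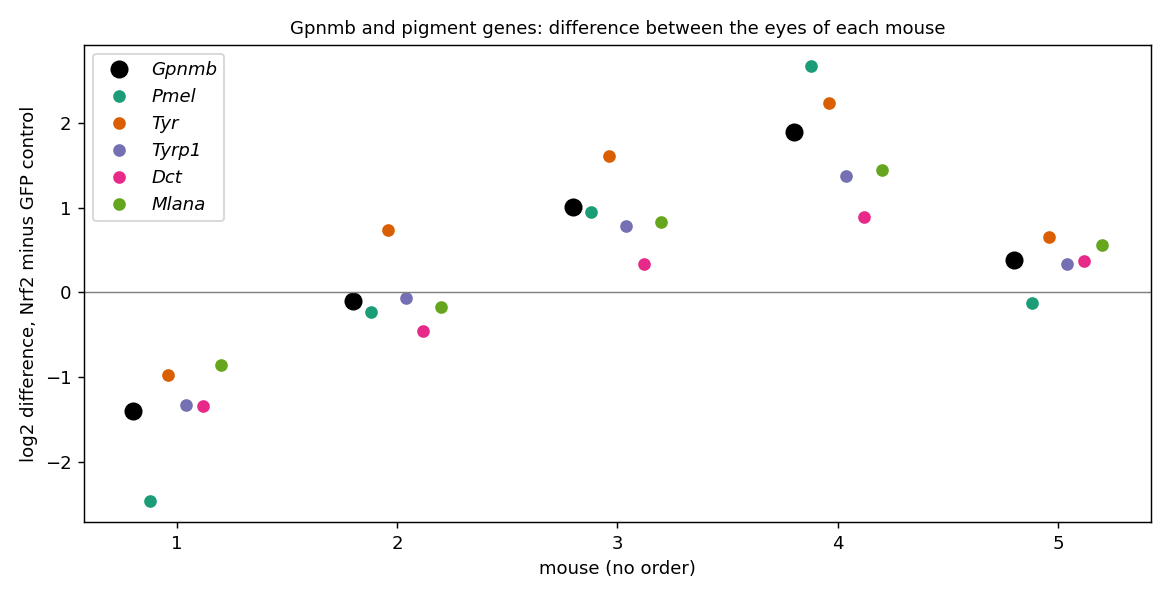
Log2 difference of the Nrf2 eye from the GFP control eye (TMM-scaled, prior count 2) of Gpnmb, as black points, and of 5 pigment genes (Pmel, Tyr, Tyrp1, Dct and Mlana, chosen after the values were seen) in each of the 5 mice, which have no order. In mouse 1 all 6 genes lie under 0 and in mouse 4 all 6 lie above it, with Gpnmb at -1.40 and 1.90. Tyr in mouse 2 (0.74) and Pmel in mouse 5 (-0.13) lie on the other side of 0 from Gpnmb. Mitf and Sox10, which are not drawn, were at -0.31 and -1.94 in mouse 4.

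Lpl encodes lipoprotein lipase, which frees fatty acids from circulating triglyceride. Lpl (ENSMUSG00000015568, chromosome 8, 68880491 to 68907448, plus strand) was at 154, 108, 84.0, 66.2 and 64.0 CPM in control eyes and at 305, 349, 503, 383 and 384 CPM in Nrf2 eyes. The Nrf2 eyes were close to each other and all above the highest control eye. Lpl rose from 95.3 ± 37.3 to 385 ± 73.3 CPM, by 2.06 in log2 units (SE 0.30, adjusted p = 0.00414).

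Unlike the immune members, Lpl was not highest in the Nrf2 eye of mouse 5 but in that of mouse 3. Per CPM of Tyrobp it was at 18.8 to 85.9 in control eyes and at 2.70 to 13.8 in Nrf2 eyes, lower in 5 of 5 mice. Muscle and fat also make Lpl. The 5 skeletal muscle markers summed to 79.4, 45.8, 77.9, 80.8 and 48.8 CPM in the control eyes of mice 1 to 5 and to 4.51, 14.3, 331, 217 and 531 CPM in the Nrf2 eyes, so that in mice 1 and 2 they were lower in the Nrf2 eye while Lpl was higher. In mice 3, 4 and 5 the muscle sums were higher in the Nrf2 eye, with log2 differences of 2.09, 1.43 and 3.44, and the Lpl differences were larger, at 2.60, 2.46 and 2.49 against 1.06 and 1.67 in mice 1 and 2. The part of muscle RNA in the values of Lpl was not tested. None of the muscle markers passed the test (0 of 5 by edgeR, 0 at an unadjusted p under 0.05 and 0 by DESeq2). The 3 most abundant, Acta1, Ckm and Myh4, gave 0.69, 0.40 and 0.79 on the log2 scale. Fat markers summed to 0.403 to 1.42 CPM in control eyes and 0.715 to 1.02 CPM in Nrf2 eyes, with Adipoq, which defines fat cells, at no more than 0.123 CPM and Fabp4 and Plin1 under 1 CPM in every library.

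Of 8 tested partners and inhibitors of lipoprotein lipase, 1 fell and 0 rose. Angptl4, a secreted inhibitor of the enzyme, fell from 53.4 ± 21.4 to 14.8 ± 7.14 CPM (log2 fold change -1.89, SE 0.19, adjusted p = 0.00152), lower in 5 of 5 mice. The maturation factors Lmf1 and Sel1l gave 0.35 and 0.04 and did not pass. Gpihbp1, the endothelial anchor of the enzyme, had too few counts to pass the edgeR filter, at 0.360 ± 0.246 and 0.123 ± 0.123 CPM, and was looked at after the values were seen.

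Spp1 encodes osteopontin, a secreted ligand of integrins and CD44. Spp1 (ENSMUSG00000029304, chromosome 5, 104435118 to 104441050, plus strand) was at 6.38, 12.9, 2.09, 5.32 and 2.42 CPM in control eyes and at 24.1, 39.9, 24.8, 46.7 and 191 CPM in Nrf2 eyes. The groups did not overlap, and the Nrf2 eye of mouse 5 was far above the rest. Spp1 rose from 5.82 ± 4.35 to 65.2 ± 70.8 CPM, by 3.16 in log2 units (SE 0.80, adjusted p = 0.0341). The call was lost with rod RNA as a covariate (adjusted p = 0.142), without mouse 3 (0.104) and without mouse 4 (0.123). Without mouse 5 the log2 fold change was 2.52. The predicted gene Gm42793 overlaps Spp1 on the same strand and held 2 counts in all.

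Of 7 tested osteopontin receptors and relatives, 1 fell and 0 rose. Itgav, an integrin chain also used by the RPE in phagocytosis, fell from 882 ± 587 to 359 ± 203 CPM (log2 fold change -1.23, SE 0.32, adjusted p = 0.0384), a call that was lost in 5 of the 11 alternative fits. Itgb5 and Itgb1 gave 0.10 and 0.09. The bone genes Ibsp, Dspp and Mepe, relatives of Spp1, had no count in any library.

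Levels of different members were compared per kilobase of annotated exon, a scale on which genes with long unused exons, such as Trem2 (4946 bases) and Lpl (10478 bases), come out low. In control eyes Apoe stood highest at 2524 ± 606 CPM per kilobase, followed by Gpnmb at 151 ± 76.1, and the ranges of both were clear of those of all genes under them. Lpl (9.09 ± 3.56) and Cd68 (8.88 ± 1.59) came next and overlapped, as did Tyrobp (3.59 ± 2.07) and Spp1 (3.53 ± 2.64). Trem2, Cst7, Itgax and Clec7a, at 0.147 ± 0.113 down to 0.096 ± 0.0982 CPM per kilobase, could not be ordered.

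In Nrf2 eyes Apoe (2139 ± 505 CPM per kilobase) and Gpnmb (192 ± 86.0) were still the highest 2, and Tyrobp came next at 107 ± 65.2. The range of Tyrobp overlapped that of Gpnmb, although Tyrobp was under Gpnmb within each of the 5 libraries. Cst7 (41.9 ± 39.0), Cd68 (41.4 ± 20.3), Spp1 (39.6 ± 42.9) and Lpl (36.7 ± 7.0) followed and were not separable. Trem2 (8.56 ± 7.06), Itgax (1.52 ± 1.32) and Clec7a (1.13 ± 1.16) had the lowest means. The range of Trem2 was clear of those of Cd68 and Lpl but overlapped those of Cst7, Spp1 and Itgax. Within each of the 5 libraries Itgax was under Trem2. Summed over genes, the immune members took 12.8 to 18.8 CPM in control eyes and 80.0 to 463 CPM in Nrf2 eyes, higher in 5 of 5 mice. The wider members took 4610 to 8312 CPM and 4309 to 7649 CPM, higher in 3 of 5 mice. Cd68 alone held most of the immune sum in control eyes, with means of 11.2 of 15.2 CPM. Apoe alone held most of the wider sum in control eyes, with means of 5397 of 6479 CPM. The wider sum therefore says little of Lpl and Spp1, which rose.

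The immune members were then set against Tyrobp in the same library. The ratio of Trem2 to Tyrobp CPM was 0.143 to 0.441 in control eyes and 0.480 to 0.722 in Nrf2 eyes, higher in 5 of 5 mice and with no overlap. Cst7 went from at most 0.143 to between 0.192 and 0.772, also higher in 5 of 5 mice. Cd68 went the other way, from 2.41 to 14.4 CPM per CPM of Tyrobp in control eyes to 0.589 to 1.16 in Nrf2 eyes, lower in 5 of 5 mice. Itgax (0.0385 to 0.786, then 0.0666 to 0.127) and Clec7a (0.0465 to 0.184, then 0.00814 to 0.0709) overlapped between groups. The Itgax ratio was higher in the Nrf2 eye in 2 of 5 mice and the Clec7a ratio in 1 of 5. Of the wider members, Spp1 went from 1.51 to 4.86 CPM per CPM of Tyrobp in control eyes to 0.368 to 1.58 in Nrf2 eyes, higher in 0 of 5 mice. For comparison, C1qa, a complement gene of macrophages, was at 1.64 to 3.43 and 1.87 to 3.12, higher in 3 of 5 mice. P2ry12, a homeostatic microglia gene, was at 0.0847 to 1.35 and 0.416 to 0.789, higher in 4 of 5 mice. The control ratios rest on 14 to 76 Tyrobp counts per library, and these ratios were not tested.

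**Figure D4:**
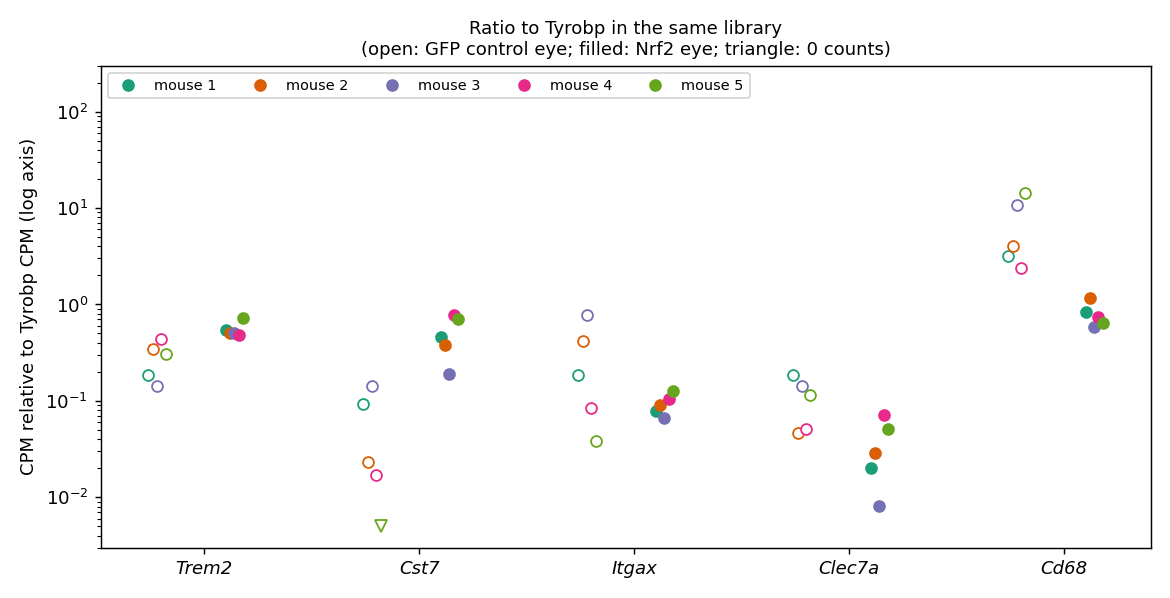
Ratio of the CPM of 5 immune members to that of Tyrobp in the same library, on a log axis, with open points for GFP control eyes, filled points for Nrf2 eyes, 1 colour per mouse and a triangle, drawn at an arbitrary height, for the control eye with 0 counts of Cst7. The Cd68 ratio is 2.41 or more in every control eye and at most 1.16 in every Nrf2 eye, and the Trem2 ratio is higher in every Nrf2 eye than in any control eye.

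The eyes differed in how far the members moved. The Nrf2 eye of mouse 5 was the highest of the 5 Nrf2 eyes for 8 of 10 members, all but Gpnmb and Lpl, and that of mouse 2 was the lowest for Trem2, Tyrobp, Cst7, Itgax, Cd68 and Apoe. Mouse 2 was the mouse with the most rod RNA, and the part of rod RNA in this order was not tested. The tested genes whose within-mouse differences lay nearest to those of Trem2 (Euclidean distance over 5 mice, 12000 genes with a mean of at least 5 CPM) were P2ry13 at 1.36, Csf3r at 1.68 and Fcrls at 2.11. Those nearest to Apoe were Pygo1, Nap1l5 and Csrp2, at 0.253 to 0.334, and those nearest to Gpnmb were Tcf7, C2 and Plcb4, at 0.398 to 0.515. The distances are smaller where the differences themselves are small.

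The label of these genes was checked against the rest of the disease-associated programme and against homeostatic microglia. Of 26 other tested genes of that programme, 8 rose, 0 fell and 18 did not pass, with a median log2 fold change of 0.39. Ccl3, a chemokine, went from at most 0.102 CPM in control eyes, under the floor, to 0.978 to 4.07 CPM in Nrf2 eyes (adjusted p = 0.00407). Lyz2, a macrophage lysozyme, rose from 10.3 ± 5.71 to 137 ± 112 CPM (log2 fold change 3.46, SE 0.67), the leukocyte antigen gene Cd52 rose by 2.82 (SE 0.42) and the growth factor gene Csf1, whose receptor microglia depend on, rose by 1.91 (SE 0.23). Ctsd, the cathepsin D gene, which the RPE uses heavily, rose from 4237 ± 894 to 15307 ± 2959 CPM (log2 fold change 1.85, SE 0.11, adjusted p = 0.00221). Ctsb and Timp2, also abundant, gave 0.48 and 0.25 and did not pass. With the rod covariate 3 of the 8 calls were left (Ccl3, Csf1 and Ctsd), those of Lyz2 and Cd52 being among the lost ones, and without mouse 4 there were 5, with Ctsz, Serpine2 and Lgals3bp lost, which are named after their values were seen.

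Homeostatic microglia genes are known to be lost in this state. Of 12 tested, 10 rose and 0 fell, with a median log2 fold change of 3.68. P2ry12, the ADP receptor of ramified microglia, rose from 0.722 ± 0.521 to 46.2 ± 31.3 CPM (log2 fold change 5.90, SE 0.58), close to Trem2 in size. P2ry13, Fcrls and Gpr34 rose by 5.48 (SE 0.68), 5.18 (SE 0.68) and 4.74 (SE 0.81). Without mouse 2 the log2 fold changes of P2ry12 and Fcrls were 6.59 and 5.84, and without mouse 5 those of Fcrls and Gpr34 were 4.53 and 4.01. Csf1r, the receptor for CSF1, was at 196 ± 50.5 CPM in control eyes and 142 ± 58.9 CPM in Nrf2 eyes (log2 fold change -0.57, adjusted p = 0.301), lower in 4 of 5 mice. Without mouse 5 it fell, with a log2 fold change of -0.85 (adjusted p = 0.0387 in edgeR), and the list then gave 10 higher and 1 lower. Genes of both lists thus passed as higher in Nrf2 eyes, so the name of the disease-associated state is used here for the genes and not for the cells.

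Of 12 macrophage markers, 10 rose and 0 fell, with a median log2 fold change of 4.09. The complement genes C1qb, C1qa and C1qc rose by 4.96 (SE 0.64), 4.91 (SE 0.58) and 4.73 (SE 0.62), and Ly86 rose by 4.6 (SE 0.65), or by 4.01 without mouse 5. The list summed to 82.7 to 174 CPM in control eyes and 499 to 1919 CPM in Nrf2 eyes.

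Markers of other leukocytes were read in the same way. Of 6 border macrophage markers tested with edgeR 0 passed, while 4 had an unadjusted p under 0.05 and 2 passed by DESeq2, with Cbr2 at 766 ± 396 and 1262 ± 379 CPM. Folr2 and F13a1, which mark such macrophages more strictly, were under 10 CPM in every library and gave 0.74 and 0.51. Of 4 monocyte markers 0 passed by edgeR, at an unadjusted p under 0.05 or by DESeq2. Plac8, S100a4 and Ly6c2 gave 0.04, 0.75 and 1.28 on the log2 scale. Among neutrophil genes Csf3r, which microglia also express, rose by 5.09 (SE 0.97, adjusted p = 0.0186), and by 6.07 without mouse 4, 4.37 without mouse 5, 6.24 with the rod covariate and 5.73 by DESeq2, whereas Ly6g gave 0.13 (adjusted p = 0.946) and S100a9 was at 0.667 ± 0.608 and 0.807 ± 0.642 CPM. Neither of the tested dendritic cell genes, Zbtb46 and Xcr1, passed by edgeR, at an unadjusted p under 0.05 or by DESeq2 (0 of 2 each), and Flt3 was at 0.245 ± 0.233 and 0.582 ± 0.156 CPM. T, B and NK cell markers had too few counts to pass the edgeR filter. DESeq2, and edgeR without the filter, each called 1 of 8 of them higher, Cd3e of T cells (adjusted p = 0.0232 and 0.0486). The list summed to 0.879 to 2.63 CPM in control eyes and 1.88 to 17.6 CPM in Nrf2 eyes, where the highest value was that of mouse 4 and the others were at most 2.89 CPM. The most abundant were Nkg7, Trbc2 and Cd3e, at 1.64 ± 3.27, 1.06 ± 1.35 and 1.04 ± 1.20 CPM in Nrf2 eyes.

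Of the non-immune markers other than those of the RPE, 1 passed. Sox10 fell by 1.74 (SE 0.22) among 4 tested melanocyte genes, while Kit and Mlana gave -0.07 and 0.37. For fibroblasts (such as Dcn, Col1a1 and Col1a2), endothelium (Kdr, Flt1 and Pecam1), Mueller glia (Dkk3, Glul and Slc1a3) and rods (Gnat1 and Sag), 0 of 5, 0 of 5, 0 of 6 and 0 of 5 tested markers passed by edgeR. The count was 0 for each of these also at an unadjusted p under 0.05 and by DESeq2. Of the other RPE markers, Rgr, Lrat and Rlbp1 fell, with log2 fold changes of -2.87 (SE 0.34), -2.26 (SE 0.27) and -1.93 (SE 0.24), and Ttr was at 11543 ± 4768 CPM in control and 11751 ± 5384 CPM in Nrf2 eyes. The part of these shifts in the RNA make-up of the eyecup in the members' values was not tested.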

How the data were processed

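RNA of 10 eyecups from 5 CD1 mice was sequenced after polyA selection and low-input amplification. The authors aligned reads with STAR to mm10 with Ensembl transcripts and counted them with featureCounts, and in parallel estimated counts with Salmon (0.8.2 per the labels). The deposited table gives raw whole-number counts for each Ensembl gene, and which of these counts was deposited and the strand setting were not given in the sources used here. Without the strand setting, reads of overlapping genes on opposite strands could not be told apart. The labels mention sequencing over more than 1 run without assigning libraries, so runs were not compared.

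The table held 47729 genes, 15729 of them with no count, and 0 columns of other samples. Symbols and positions came from GENCODE M21 (same build), which matched 47310 identifiers. Genes were filtered with filterByExpr, scaled by TMM and tested in edgeR 4.0.16 (R 4.3.3) with the quasi-likelihood F test and the mouse as a block, because per the labels both eyes came from the same animal. Across genes, deviations from the group means correlated at r = 0.21 to 0.80 between the eyes of a mouse and at -0.54 to 0.33 between mice. Any 2 libraries differed by more than sampling noise (smallest chi-square per degree of freedom 34.5). Benjamini-Hochberg adjusted p-values under 0.05 were called. Log2 fold changes are fitted values (prior count 0.125), and the SE was taken from log2 CPM (prior count 2) as the SD over the 5 mice of Nrf2 minus control, divided by the square root of 5. CPM are counts over the library total. The test was run on simulated counts before use.

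Alternatives were the fit without the block, DESeq2 1.42.0 with the mouse in the model, size factors in place of TMM, other count filters, rod RNA as a covariate and leaving out each mouse. The 10 members and the 27 other gene lists were chosen with earlier results of these data known. Named are all members, and from each list the up to 4 called genes of largest change and the 3 most abundant, except where said. Lilrb4a and Treml6 were not used here, and some genes of the lists are not reported here by name. Only promoter sequences were used.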

Additional observations from a re-analysis of the deposited data

Results flagged for a closer look

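Over the members, 20 groups of 5 eyes were examined for a sample far from the others. In 1 of them, Clec7a in GFP control eyes, mouse 1 was high, at -0.31 on the log2 CPM scale (14 counts, 0.714 CPM), while the other control eyes lay between -2.22 and -1.82. The gap was 0.793 of the range of the group, above the critical value of 0.71. Chance alone gives such a gap in about 1 in 20 groups. The other control eyes held 2 or 3 counts of Clec7a each, so the distance rests on few reads.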

How the results depend on the processing

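Trem2, Tyrobp, Cst7, Cd68 and Lpl passed the threshold in all 11 alternative fits. Over these fits their log2 fold changes were 5.05 to 6.38, 4.27 to 5.25, 7.22 to 9.54, 1.95 to 2.30 and 1.93 to 2.35. With a prior count of 2 the main fit gave 7.07 for Cst7. The count of called members, 6, ran from 5 to 8. Without the pairing by mouse, 755 genes were called in place of 1036, and Itgax was added, for 7 members; it changed no other member's call. DESeq2 called 1823 genes, 1067 higher and 756 lower, of 19309 tested. The covariate of rod RNA gave 499 and turned Gpnmb to -0.14 (adjusted p = 0.923), where the cause was not tested. Leaving out 1 mouse, which also leaves fewer samples, gave 584 (without mouse 2) to 857 genes, with 613 without mouse 4 and 683 without mouse 5. The log2 fold changes of Spp1, Itgax and Clec7a ran from 2.52 to 3.67, 2.58 to 4.12 and 2.39 to 3.54, the lowest of each without mouse 5. Those of Apoe ran from -0.45 (without mouse 5) to -0.12 (without mouse 2) and those of Gpnmb from -0.14 to 0.83 (without mouse 1). Spp1 passed in 8 of the 11 fits, Itgax in 3 and Apoe and Gpnmb in 0. Clec7a passed in 2 of 9, since without mouse 1 and with a mean of at least 50 counts it was removed by the filter. No filter on low counts added both Itgax (adjusted p = 0.0334) and Clec7a (0.0353). Among the other lists the call of Itgb2 was lost with the rod covariate and without mouse 3 or 4, and that of Itgav without the pairing, with the rod covariate and without mouse 1, 2 or 5. Called genes of the TREM2 partners went from 4 to 8 by DESeq2, 7 with no filter, and 2 with the rod covariate or without mouse 4, those of the other disease-associated genes from 8 to 3 and 5 in the latter 2 fits, those around Apoe from 3 to 5 by DESeq2 and to 1 with the rod covariate or without mouse 1, 2 or 3, and those of the proteases from 3 to 1 with the rod covariate or without mouse 1, 4 or 5. Of the homeostatic genes 10 were called higher, 8 with the rod covariate, 9 without mouse 1, 2, 3 or 4 and with a mean of at least 50 counts, 11 by DESeq2, and 10 without mouse 5, where 1 more (Csf1r) was lower. The single called LAMP gene became 2 without the pairing, by DESeq2, with size factors and with a mean of at least 50 counts, and 0 with the rod covariate and without mouse 2, 3, 4 or 5. Depth limits Clec7a, Itgax and Cst7 in control eyes, where a library held 0 to 18 counts of each.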

Other observations

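Further genes of TREM2 signalling, not past the threshold or removed by the filter, are given as values. Hcst, the adaptor DAP10 that can pair with TREM2 beside TYROBP, had too few counts to pass the edgeR filter, with 0.0859 ± 0.0571 CPM in control eyes and 0.839 ± 0.473 CPM in Nrf2 eyes, higher in 5 of 5 mice. Btk, a kinase of B cells and macrophages, was at 0.163 ± 0.208 and 1.93 ± 1.17 CPM (log2 fold change 3.69, SE 0.71, adjusted p = 0.0678 in edgeR), and Inpp5d, the phosphatase that restrains TREM2 signalling, at 2.30 ± 1.73 and 12.4 ± 9.77 CPM (2.33, SE 0.94, adjusted p = 0.154). These 3 genes were chosen after their values were seen.

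Several genes that are counted among the disease-associated programme but are abundant outside immune cells gave log2 fold changes near 0: Cd63 (0.07), Cd9 (0.15), Lgals3 (0.17) and Npc2 (-0.06), none past the threshold of the edgeR test. They were chosen after their values were seen, from the 18 of the list that did not pass, and their control levels were 272 to 790 CPM on average. This choice leaves out the 8 genes of the list that passed as higher. Among those 8 is Ctsd, also abundant in the RPE, with a log2 fold change of 1.85.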
